A study of Mus musculus with 6 samples.

Results

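The complement system genes were examined in liver tumors of WT and Nr2e3-/- mice. A list of 34 gene symbols, covering complement components, regulators and receptors, was matched against the symbol column of the count table. All 34 were found among its 24063 genes. After a filter on low counts 33 of them could be tested, and Cd46, with 3 to 14 counts per library, could not.

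Complement is a cascade of blood proteins that marks and destroys microbes and damaged cells. Most of its soluble proteins are made by hepatocytes and secreted into the plasma, whereas the C1q chains and properdin come mainly from macrophages and other myeloid cells. The classical and lectin pathways start from recognition molecules bound to antibodies or sugars, the alternative pathway amplifies deposited C3, and all converge on the cleavage of C3 and C5 and on a pore built from C5b, C6, C7, C8 and C9. The released peptides C3a and C5a act on receptors of myeloid cells.

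Both groups were male, and each consisted of 3 tumors sequenced as 3 libraries. Both came from C57BL/6 mice, either WT or lacking the orphan nuclear receptor Nr2e3 in the whole animal (Nr2e3-/-). All had received the carcinogen diethylnitrosamine (DEN) at 25 mg per kg intraperitoneally when 15 days old, so that both groups, controls included, carried carcinogen-induced tumors, taken at 24 weeks. Untreated liver was not analysed here. The comparison asks how loss of Nr2e3 alters the tumors.

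Libraries held 25250090 to 28690279 counts in WT and 15376261 to 28336305 counts in Nr2e3-/- tumors. Nr2e3 had 0 counts in all 6 libraries, which allows up to 0.105 to 0.195 CPM (counts after scaling the library total to 1000000), so its reads give no check of the genotypes. All 8 hepatocyte markers, led by Alb, were detected in every library, and their summed level was 146010 to 177930 normalized CPM in WT and 132090 to 154100 in Nr2e3-/- tumors. Nr2e3-/- replicate 1 had the fewest counts, and the number of calls depended on it. Across all genes edgeR called 13 of 13572 (0.0958%) with it and 3022 of 13840 without it. Of the Nr2e3-/- libraries it had the smallest shares of genes above (32.7%) and below (33.1%) all WT libraries. Leaving it out therefore keeps the libraries that lie farther from WT, so calls without it are no independent check. Values for the complement genes are given both ways where the call depends on this library.

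The 34 genes took 1.85% to 1.98% of all counts in the 3 WT libraries and in Nr2e3-/- replicate 1, 2.72% in Nr2e3-/- replicate 2 and 2.18% in replicate 3. C3, the protein on which all pathways converge, supplied 33.6% to 41.6% of these counts. Per kb of exon, C3 had the highest level, with a median over the 6 libraries of 1425 normalized CPM per kb, followed by vitronectin (Vtn) at 940.1, factor B (Cfb) at 505, clusterin (Clu) at 487 and factor I (Cfi) at 369.7. At the other end, the C5a receptor C5ar1 had 0.675, C7 had 0.481 and Cd46 had 0.035 normalized CPM per kb. The levels thus spanned more than 4 orders of magnitude, and genes with such low levels rest on few reads: C7 had 11 to 45 counts per library and C5ar1 had 23 to 138.

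**Figure D1:**
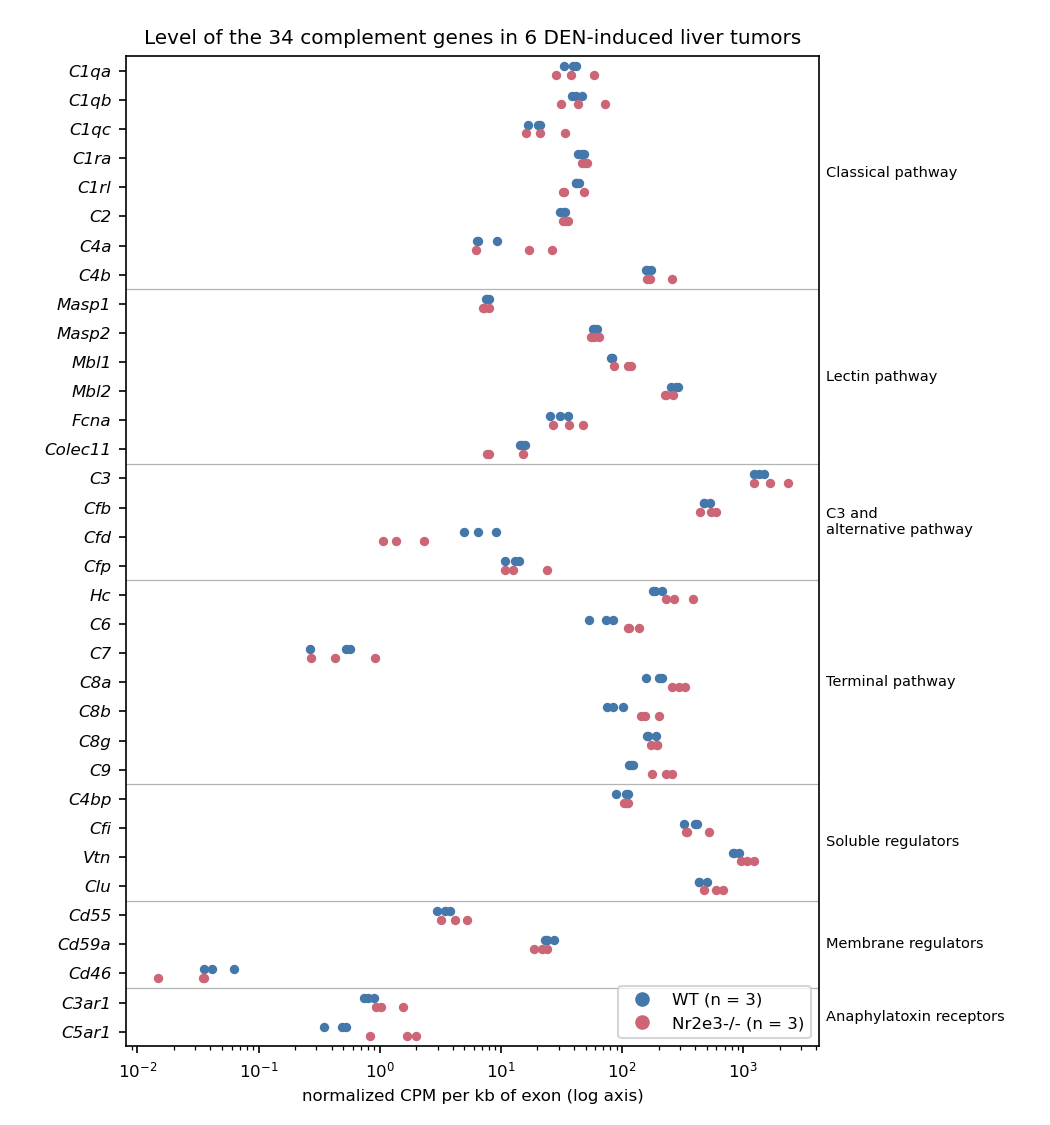
Normalized CPM per kb of exon (log axis) for the 34 complement genes, grouped by role, with 1 point per library (blue, 3 WT; red, 3 Nr2e3-/-). C3 lies highest, with a median of 1425, and Cd46 lowest, with 0.035.

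No complement gene passed an adjusted p of 0.05 in the edgeR quasi-likelihood test of Nr2e3-/- against WT. Cfd, C8b, C9 and C5ar1 had an adjusted p under 0.1, 4 of 33 or 12.1% beside 2.31% of all genes tested. At an unadjusted p under 0.05, 9 of 33 were higher in Nr2e3-/- tumors (27.3%, beside 11.8% of all genes) and 1 was lower (3.03%, beside 9.72%). The log2 fold change was above 0 for 27 genes and below 0 for 6, with a median of 0.26, against 0.01 over all genes tested. Values of the 3 Nr2e3-/- libraries all lay above the 3 WT libraries for 9 genes (27.3%, beside 13.9% of all genes) and all below for 1 (3.03%, beside 12.9%). The 9 were Mbl1, Hc, C6, C8a, C8b, C9, Vtn, C3ar1 and C5ar1, and the 1 was Cfd.

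Of these 9 genes, 5 belong to the terminal pathway, which has 7 listed genes. Within it 5 of 7 genes were higher without overlap (71.4%, beside 13.9% of all genes). The median log2 fold change was 0.62, with a range of 0.13 to 0.94. Among the other 26 genes tested, 4 were higher without overlap (15.4%, close to the 13.9% of all genes) and 1 was lower (3.85%, beside 12.9%). Their median log2 fold change was 0.17. The difference between the terminal pathway and the other genes was not tested.

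**Figure D2:**
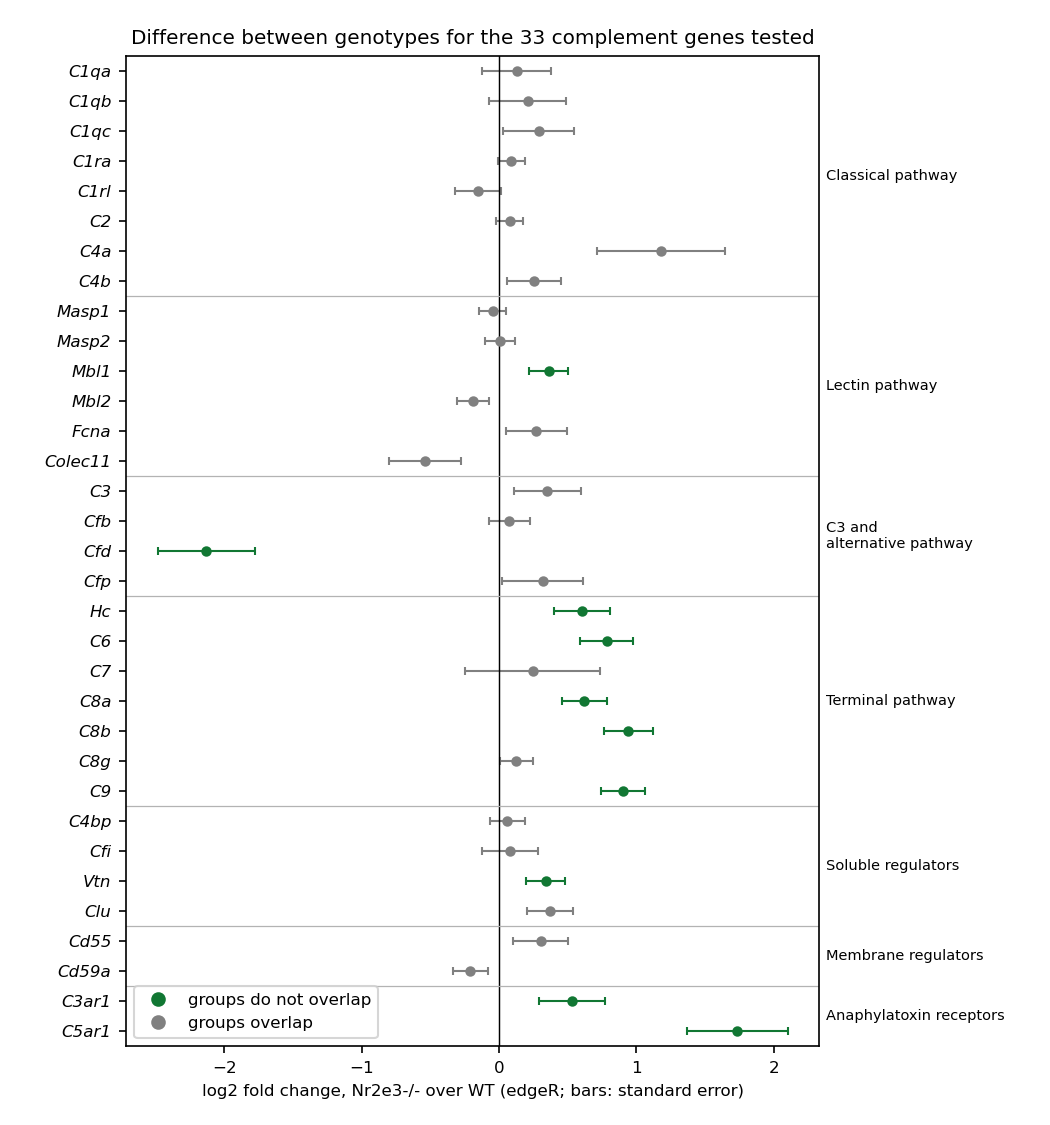
Log2 fold change of Nr2e3-/- over WT (points) with its standard error (bars) from edgeR for the 33 complement genes tested, by role; green marks genes whose 3 Nr2e3-/- and 3 WT values do not overlap. C5ar1 (1.74) and Cfd (-2.13) lie farthest from 0, and the terminal pathway genes all lie above 0.

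Without Nr2e3-/- replicate 1, edgeR called 11 complement genes at an adjusted p under 0.05. Of these, 8 were higher (Mbl1, Hc, C6, C8a, C8b, C9, Clu and C5ar1; 24.2% of 33, beside 12.2% of all genes) and 3 were lower (C1rl, Colec11 and Cfd; 9.09%, beside 9.65%). With all 6 libraries, DESeq2 called 5 higher (C6, C8a, C8b, C9 and C5ar1; 15.2%, beside 4.87% of all genes) and Cfd lower (3.03%, beside 3.06%). Limma-voom with sample weights, which gave Nr2e3-/- replicate 1 the lowest weight (0.338), called 9 of 33 (27.3%), beside 17.4% of all genes. When any single library other than Nr2e3-/- replicate 1 was left out, edgeR called 0 complement genes.

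The terminal pathway builds the membrane attack complex. Hc encodes C5, whose cleavage releases C5a and starts the pore. C6 and C7 bind C5b, C8 (the chains C8a, C8b and C8g) enters the membrane, and C9 polymerises into the ring. C8a and C8b are neighbours on chromosome 4, with C8b at 104766317 to 104804548 on the plus strand and C8a, on the minus strand, at 104815679 to 104876398. C6 (4727175 to 4814967), C7 (4988762 to 5063740) and C9 (6445327 to 6498751) lie on chromosome 15, and Hc lies at 34983331 to 35061438 of chromosome 2 (all GRCm38). The promoters of the 5 genes whose groups did not overlap are shown because these genes differed in the same direction. They are the 250 bases before the RefSeq start on the gene's own strand in GRCm38.p6, at chr2:35061413-35061662 (minus), chr4:104766067-104766316 (plus), chr4:104876399-104876648 (minus), chr15:4726960-4727209 (plus) and chr15:6445096-6445345 (plus), with motif matches in capitals.
Hc: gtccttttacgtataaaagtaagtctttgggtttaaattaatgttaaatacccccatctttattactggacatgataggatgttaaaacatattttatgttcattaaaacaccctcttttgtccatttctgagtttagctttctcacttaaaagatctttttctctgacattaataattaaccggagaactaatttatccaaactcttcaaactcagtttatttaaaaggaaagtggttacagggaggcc
C8b: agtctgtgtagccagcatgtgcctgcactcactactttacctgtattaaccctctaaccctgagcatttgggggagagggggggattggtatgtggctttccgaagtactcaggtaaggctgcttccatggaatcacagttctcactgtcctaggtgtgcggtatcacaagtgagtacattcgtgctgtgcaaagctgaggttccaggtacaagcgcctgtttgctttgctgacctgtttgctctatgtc
C8a: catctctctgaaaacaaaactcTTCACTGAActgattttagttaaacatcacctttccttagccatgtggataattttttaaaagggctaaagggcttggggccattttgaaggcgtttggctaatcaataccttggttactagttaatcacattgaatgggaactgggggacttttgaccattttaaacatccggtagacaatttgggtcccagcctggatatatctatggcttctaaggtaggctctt
C6: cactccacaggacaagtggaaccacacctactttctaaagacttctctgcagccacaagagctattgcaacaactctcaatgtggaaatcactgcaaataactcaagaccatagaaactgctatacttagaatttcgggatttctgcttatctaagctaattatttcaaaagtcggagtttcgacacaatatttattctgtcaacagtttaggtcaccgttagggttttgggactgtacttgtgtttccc
C9: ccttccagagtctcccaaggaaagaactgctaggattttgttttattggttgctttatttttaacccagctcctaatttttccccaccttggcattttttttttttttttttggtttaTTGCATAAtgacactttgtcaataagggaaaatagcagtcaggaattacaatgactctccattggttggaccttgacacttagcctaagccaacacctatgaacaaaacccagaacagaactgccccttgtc
Motifs of 3 factors of the hepatic acute phase response were searched on both strands of all 32851 promoters of this length: TTCNNNGAA (STAT), TTGCNNAA (C/EBP) and GGANTTTCC (NF-kB). Of the 5 promoters, C8a holds a STAT match starting 228 bases before the start and C9 a C/EBP match starting 132 bases before it. Of the 34 complement genes, 26 matched the promoter table, with 27 promoters. The STAT motif was found in 4 of these genes (C7, C8a, Colec11 and Masp2) beside 7.02% of all promoters, the C/EBP motif in 3 (C1rl, C3 and C9) beside 9.56%, and the NF-kB motif in 0 beside 1.07%. These are matches of letters, not binding sites.

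C9 had 304, 289 and 313 normalized CPM in WT replicates 1, 2 and 3, and 448, 663 and 584 in Nr2e3-/- replicates 1, 2 and 3. The WT libraries lay close together, and every Nr2e3-/- library was above them. Its log2 fold change was 0.90 (SE 0.16, edgeR adjusted p = 0.093), its adjusted p was 4.567e-05 by DESeq2, and it was 0.00362 by edgeR without Nr2e3-/- replicate 1.

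C8b had 215, 191 and 257 normalized CPM in WT and 363, 394 and 516 in Nr2e3-/- libraries. Here replicate 3 rather than replicate 2 was highest in the Nr2e3-/- group, and the groups did not overlap (log2 fold change 0.94, SE 0.18, edgeR adjusted p = 0.093, and 1.05 with adjusted p = 0.0111 without Nr2e3-/- replicate 1). Its neighbour C8a had 737, 568 and 777 in WT and 938, 1202 and 1065 in Nr2e3-/- libraries, again without overlap (0.62, SE 0.17, edgeR adjusted p = 0.127, and 0.72 with adjusted p = 0.0289 without Nr2e3-/- replicate 1). C8g, the third chain of C8, a lipocalin encoded on chromosome 2, did not follow them. It had 238, 286 and 244 normalized CPM in WT and 289, 258 and 291 in Nr2e3-/- libraries, with overlapping groups and a log2 fold change of 0.13 (SE 0.12, edgeR adjusted p = 0.554). The ratio of C8a to C8g was 3.09, 1.99 and 3.19 in WT and 3.24, 4.65 and 3.66 in Nr2e3-/- libraries. These ratios did not overlap (exact permutation test, two-sided p = 0.1), and 0.1 is the smallest p that 3 against 3 libraries allow.

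C6 had 263, 189 and 300 normalized CPM in WT and 396, 408 and 490 in Nr2e3-/- libraries. All Nr2e3-/- values were above the WT values, and the log2 fold change was 0.78 (SE 0.19, edgeR adjusted p = 0.113, and 0.85 with adjusted p = 0.0325 without Nr2e3-/- replicate 1). C7, which binds next to C6 in the complex, had the lowest level of the pathway, with 1.42, 0.71 and 1.53 in WT and 0.728, 1.15 and 2.43 in Nr2e3-/- libraries. Its groups overlapped, and its sign changed when WT replicate 2 or Nr2e3-/- replicate 3 was left out.

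Hc had 1168, 1338 and 1127 normalized CPM in WT and 1445, 2398 and 1678 in Nr2e3-/- libraries. The groups did not overlap, and Nr2e3-/- replicate 2 stood above the others (log2 fold change 0.60, SE 0.21, edgeR adjusted p = 0.17). Without that library the log2 fold change was 0.37 (edgeR adjusted p = 0.231), and without Nr2e3-/- replicate 1 it was 0.76 (edgeR adjusted p = 0.0322).

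The summed level of the 7 genes was 2926, 2862 and 3019 normalized CPM in WT and 3880, 5324 and 4626 in Nr2e3-/- libraries. Of the 8 hepatocyte markers, 5 had a log2 fold change below 0 and 3 above, with a median of -0.007. Only 1 of the 8, the transcription factor Hnf4a, was higher without overlap, beside 13.9% of all genes. It had 786 to 854 normalized CPM in WT and 904, 1152 and 1398 in Nr2e3-/- libraries (log2 fold change 0.50, edgeR adjusted p = 0.174). The summed level of the 8 hepatocyte markers, most of which is Alb, overlapped between groups. The part of hepatocyte content in the terminal pathway values was not tested. As the samples are bulk tumor RNA, more cells of a type and more RNA per cell cannot be told apart.

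**Figure D3:**
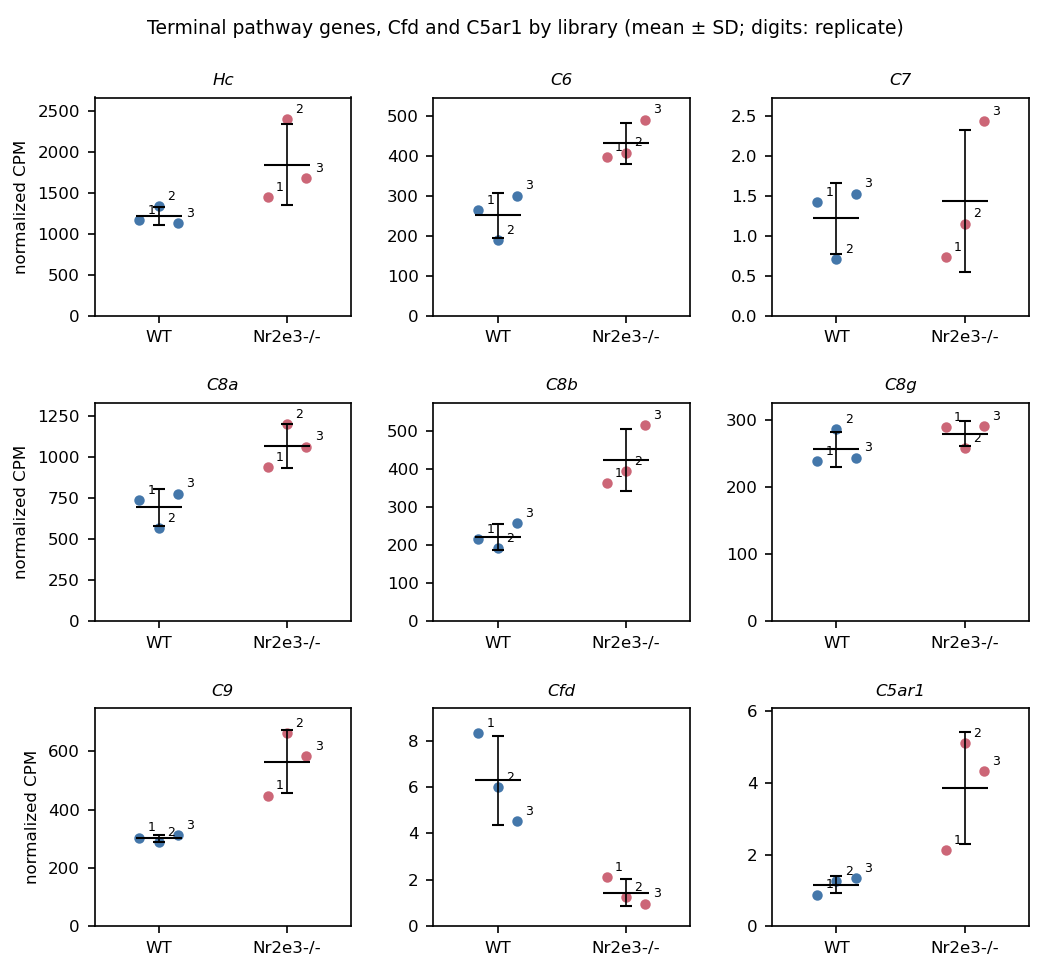
Normalized CPM (linear axes from 0) of the 7 terminal pathway genes, Cfd and C5ar1 in each library, with digits for the replicate and black bars for the mean ± SD (n = 3 per genotype). Hc, C6, C8a, C8b, C9 and C5ar1 lie higher and Cfd lower in all 3 Nr2e3-/- libraries, while C7 and C8g overlap.

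C3 and the alternative pathway include the central component C3, factor B, the serine protease factor D (Cfd, or adipsin), which cleaves factor B, and properdin (Cfp), which stabilises the C3 convertase. Cfd (chromosome 10, 79890853 to 79892655, plus strand) had the largest difference of all 33 genes tested. It had 8.33, 5.99 and 4.54 normalized CPM in WT and 2.12, 1.26 and 0.973 in Nr2e3-/- libraries, from 217, 177 and 131 counts against 32, 34 and 18. Every Nr2e3-/- library was below every WT library. The log2 fold change was -2.13 (SE 0.35, edgeR adjusted p = 0.093), with an adjusted p of 5.493e-06 by DESeq2 and 0.00667 by edgeR without Nr2e3-/- replicate 1. Cfd is a known product of fat cells. The 3 fat cell genes read, chosen after the value of Cfd was seen, had few counts. Plin1 had 0 counts in every library, and Adipoq and Lep had at most 2. The part of fat cells in the Cfd values was not tested.

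C3 had 6982, 7678 and 6271 normalized CPM in WT and 6330, 11895 and 8503 in Nr2e3-/- libraries. Replicates 2 and 3 of the Nr2e3-/- group were above all WT libraries and replicate 1 lay within their range, so the groups overlapped (log2 fold change 0.35, SE 0.25, edgeR adjusted p = 0.425). Cfb had 1346, 1504 and 1348 in WT and 1230, 1678 and 1516 in Nr2e3-/- libraries, with a log2 fold change of 0.08 that turned negative with upper quartile scaling and without Nr2e3-/- replicate 2. Of its 50-base exon stretches 73% also occur in the readthrough gene Gm20547, as do 38.7% of those of C2, so counts of both genes depend on how shared reads were assigned.

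Ratios between genes of one library do not depend on scaling. The ratio of Cfd to its substrate Cfb was 0.00619, 0.00398 and 0.00337 in WT and 0.00172, 0.000752 and 0.000642 in Nr2e3-/- libraries. The ratio of C9 to C3 was 0.0435, 0.0377 and 0.0499 in WT and 0.0708, 0.0557 and 0.0686 in Nr2e3-/- libraries. Neither ratio overlapped between groups (exact permutation test, two-sided p = 0.1 for each). The ratio of Hc to C3 did not overlap either (0.167 to 0.180 in WT and 0.197 to 0.228 in Nr2e3-/- libraries, exact p = 0.1), whereas C9 to C6 (exact p = 0.6) and C8b to C8a (exact p = 0.3) overlapped. In all, 11 ratios between gene pairs were computed, and their p-values were not adjusted since none could pass the threshold. The ratios C8a to C8g, C9 to C3, Hc to C3, Cfd to Cfb and Mbl1 to Mbl2 did not overlap. Each holds a gene whose own groups did not overlap, so they are no independent check. The share of non-overlapping ratios among other gene pairs was not computed.

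The classical pathway starts with C1q, which binds antibodies on a surface and carries the proteases C1r and C1s. Their activation leads to the cleavage of C4 and C2, which form the C3 convertase. None of the 8 listed genes was without overlap, beside 26.8% of all genes, and the median log2 fold change was 0.17. Of the 8, 1 gene (C4a) had an unadjusted p under 0.05 in edgeR, beside 21.5% of all genes. The 3 chains of C1q, encoded side by side on chromosome 4 between 136880129 and 136898803 on the minus strand, followed one another across libraries. C1qa had 34.3, 43.3 and 40.9 normalized CPM in WT and 29.9, 60.4 and 39 in Nr2e3-/- libraries. C1qb had 42, 50.7 and 45.4 in WT and 34, 77.9 and 47.4 in Nr2e3-/- libraries. C1qc had 32.1, 40.5 and 39.3 in WT and 31.2, 64.9 and 40.3 in Nr2e3-/- libraries. All 3 were highest in Nr2e3-/- replicate 2 and lowest in Nr2e3-/- replicate 1, with log2 fold changes of 0.13, 0.21 and 0.29 (edgeR adjusted p = 0.783, 0.68 and 0.533) that turned negative without Nr2e3-/- replicate 2.

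The 8 Kupffer cell and macrophage markers were likewise highest, as a sum, in Nr2e3-/- replicate 2 and lowest in replicate 1. Their summed level was 323 to 408 normalized CPM in WT, and 280, 736 and 371 in Nr2e3-/- replicates 1, 2 and 3. All 8 had a log2 fold change above 0, none with an unadjusted p under 0.05, and none was at 0. The summed level of the C1q chains was 108 to 135 in WT, and 95.1, 203 and 127 in Nr2e3-/- libraries. Set against the macrophage receptor Csf1r, C1qa had a ratio of 0.652, 0.716 and 0.612 in WT and 0.671, 0.625 and 0.782 in Nr2e3-/- libraries, with overlap (exact permutation test, two-sided p = 0.6). Within the trio, the ratio of C1qc to C1qa was 0.937, 0.934 and 0.960 in WT and 1.04, 1.07 and 1.03 in Nr2e3-/- libraries, which did not overlap (exact permutation test, two-sided p = 0.1), and that of C1qb to C1qa was 1.23, 1.17 and 1.11 in WT and 1.14, 1.29 and 1.21 in Nr2e3-/- libraries, which did (two-sided exact p = 0.5).

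Other genes known from liver macrophages had their highest value in the same library. Properdin (Cfp) had 18.9, 24.4 and 22.8 normalized CPM in WT and 18.6, 41.5 and 22 in Nr2e3-/- libraries, and ficolin A (Fcna), a sugar-binding starter of the lectin pathway, had 35, 42.4 and 49.5 in WT and 37.2, 65.5 and 50.2 in Nr2e3-/- libraries. Both overlapped between groups. The part of macrophage content in the values of C1q, Cfp and Fcna was not tested.

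**Figure D4:**
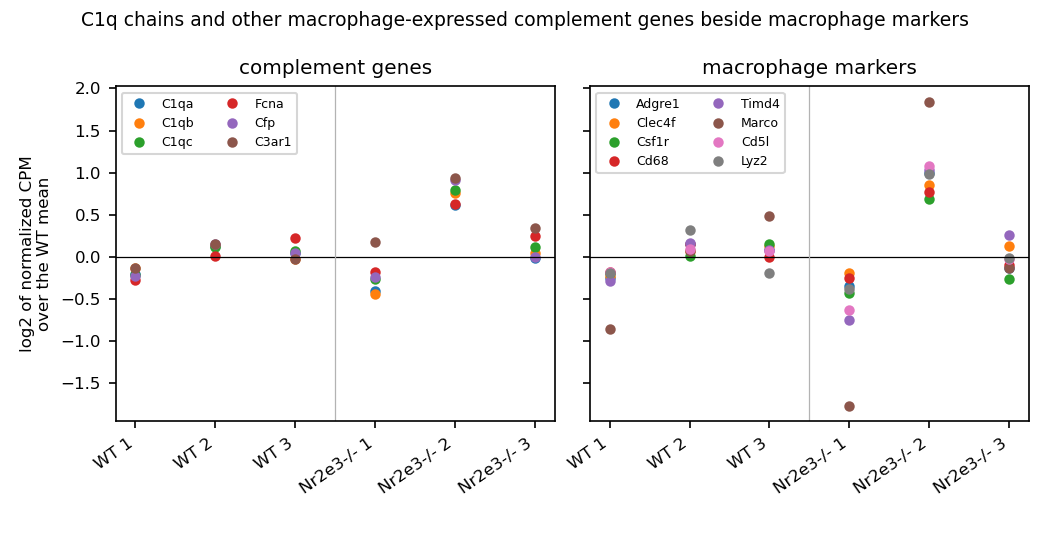
Log2 of normalized CPM over the WT mean (y axis) in each of the 6 libraries (x axis), for C1qa, C1qb, C1qc, Fcna, Cfp and C3ar1 (left) and the 8 Kupffer cell and macrophage markers (right), with 1 point per gene. Both sets lie highest in Nr2e3-/- replicate 2, and their summed levels there were 203 normalized CPM for the C1q chains and 736 for the markers.

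C4 is encoded by a pair of near-identical genes on chromosome 17. C4b makes functional C4, whereas mouse C4a encodes the sex-limited protein, a C4-like protein. Their longest open reading frames were identical at 5005 of 5205 aligned bases (96.2%), and 30.6% of the 50-base exon stretches of C4a also occur in C4b. Whether a read can be assigned to C4a depends on stretches such as the following, the window of 90 bases with the most differences (14, in capitals), at bases 2666 to 2755 of the C4a frame and 2675 to 2764 of the C4b frame (GENCODE transcripts, GRCm38).
C4a: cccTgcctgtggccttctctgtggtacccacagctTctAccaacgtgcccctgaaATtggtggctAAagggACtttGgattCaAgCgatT
C4b: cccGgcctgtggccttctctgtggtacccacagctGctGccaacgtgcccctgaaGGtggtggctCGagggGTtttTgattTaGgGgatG
C4a had 57.1, 39.1 and 40.0 normalized CPM in WT and 105, 38.8 and 165 in Nr2e3-/- libraries. Replicates 1 and 3 of the Nr2e3-/- group were above all WT libraries and replicate 2 was below them, so the groups overlapped (log2 fold change 1.18, SE 0.47, edgeR unadjusted p = 0.0385 and adjusted p = 0.209). C4b had 896, 981 and 920 in WT and 912, 1460 and 969 in Nr2e3-/- libraries, with replicate 2 highest (log2 fold change 0.26, edgeR adjusted p = 0.465). The 2 genes therefore differed in which library was high, and the ratio of C4a to C4b was 0.0637, 0.0399 and 0.0434 in WT and 0.115, 0.0266 and 0.17 in Nr2e3-/- libraries. As they share reads, the split between them is uncertain.

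The proteases of the classical pathway had overlapping groups. C2, the second part of the convertase, had a log2 fold change of 0.08 (SE 0.10), and the protease C1ra, which shares 48% of its 50-base stretches with C1rb, had 0.09 (SE 0.10). The C1r-like protease C1rl, which cleaves the precursor of haptoglobin, had 126, 132 and 125 normalized CPM in WT and 146, 98.6 and 100.2 in Nr2e3-/- libraries. Replicate 1 of the Nr2e3-/- group was above and the other two below the WT libraries (log2 fold change -0.15, edgeR adjusted p = 0.615, and -0.35 with adjusted p = 0.0393 without replicate 1).

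In the lectin pathway, collectins and ficolins recognise sugars, and the step of the proteases Masp1 and Masp2 leads to the cleavage of C4 and C2. Of its 6 genes 3 had a log2 fold change above 0 and 3 below, with a median of -0.02. The 2 mannose-binding lectins went in opposite directions. Mbl1 had 130, 129 and 126 normalized CPM in WT and 134, 176 and 185 in Nr2e3-/- libraries. The Nr2e3-/- values were all above the WT values, by little in replicate 1 (log2 fold change 0.36, SE 0.14, edgeR adjusted p = 0.201, and 0.0148 without that library). Mbl2 had 273, 313 and 303 in WT and 243, 285 and 251 in Nr2e3-/- libraries, with a log2 fold change of -0.19 (SE 0.12, edgeR adjusted p = 0.373) and overlap. The ratio of Mbl1 to Mbl2 was 0.475, 0.412 and 0.415 in WT and 0.549, 0.616 and 0.736 in Nr2e3-/- libraries, without overlap (exact permutation test, two-sided p = 0.1).

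Colec11 encodes a collectin of the circulation that pairs with the product of Colec10. It had 23.1, 24 and 25.7 normalized CPM in WT and 24.7, 13 and 12.5 in Nr2e3-/- libraries. Replicates 2 and 3 of the Nr2e3-/- group were far below the WT range and replicate 1 was inside it (log2 fold change -0.54, SE 0.26, edgeR adjusted p = 0.276, and -0.91 with adjusted p = 0.00434 without replicate 1). Colec10, chosen after its values were seen, was likewise below the WT range in replicates 2 and 3 and within it in replicate 1, with 33.4, 38.4 and 40.8 in WT and 37.5, 26.0 and 21.7 in Nr2e3-/- libraries (log2 fold change -0.41, edgeR adjusted p = 0.29). The 6 stellate cell and fibroblast markers summed to 324 to 401 normalized CPM in WT and to 358, 222 and 198 in Nr2e3-/- replicates 1, 2 and 3. Of these 6, 5 had a log2 fold change below 0, none with an unadjusted p under 0.05 and none at 0, and the part of such cells in the Colec11 values was not tested. Masp1 and Masp2 had log2 fold changes of -0.05 (SE 0.10) and 0.01 (SE 0.11), and part of the Masp2 exons overlaps those of Tardbp.

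The soluble regulators keep the cascade in check. Cfi, with cofactors such as C4bp, inactivates deposited fragments of C4 and C3, and Vtn and Clu bind the assembling pore and keep it out of membranes. Vtn had 1710, 1660 and 1867 normalized CPM in WT and 1950, 2501 and 2181 in Nr2e3-/- libraries, all higher than in WT (log2 fold change 0.34, SE 0.14, edgeR adjusted p = 0.227). Clu had 1714, 1468 and 1475 in WT and 1633, 2336 and 2045 in Nr2e3-/- libraries, with overlap (log2 fold change 0.37, SE 0.17, edgeR adjusted p = 0.253, and 0.0496 without Nr2e3-/- replicate 1). C4bp and Cfi had log2 fold changes of 0.06 (SE 0.13) and 0.08 (SE 0.20), and both signs turned with upper quartile scaling.

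The membrane regulators protect host cells. Cd55, which takes convertases apart, had 16.7, 18.6 and 14.5 normalized CPM in WT and 15.4, 25.5 and 20.3 in Nr2e3-/- libraries (log2 fold change 0.30, edgeR adjusted p = 0.4). Cd59a, which blocks the addition of C9 to the pore, had 42.1, 49.2 and 43.2 in WT and 43.5, 33.6 and 39.4 in Nr2e3-/- libraries (log2 fold change -0.21, edgeR adjusted p = 0.374). Both overlapped between groups. Cd46, which in mice is found mainly in testis, had 0.269, 0.474 and 0.312 in WT and 0.265, 0.111 and 0.27 in Nr2e3-/- libraries and was below the filter.

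The receptors for C3a and C5a, found mainly on myeloid cells, were both higher in all 3 Nr2e3-/- libraries. C5ar1 (chromosome 7, 16246743 to 16259540, minus strand) had 0.883, 1.25 and 1.35 normalized CPM in WT and 2.12, 5.12 and 4.33 in Nr2e3-/- libraries. The lowest Nr2e3-/- library was above the highest WT library (log2 fold change 1.74, SE 0.37, edgeR adjusted p = 0.0984, with 0.00133 by DESeq2 and 0.00469 by edgeR without Nr2e3-/- replicate 1). C3ar1 had 3.19, 3.89 and 3.43 in WT and 3.97, 6.68 and 4.43 in Nr2e3-/- libraries. Replicate 1 was just above the highest WT library, and the log2 fold change was 0.53 (SE 0.24, edgeR adjusted p = 0.253).

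Of 5 neutrophil markers Ly6g was not found in the table, and the summed level of the other 4 was 3.33 to 5.48 normalized CPM in WT and 3.05, 25.4 and 15.1 in Nr2e3-/- libraries. S100a8 and S100a9 had an unadjusted p under 0.05 with overlapping groups, and none of the 4 was at 0. Retnlg, which was below the filter, had 0.154, 0.169 and 0.139 in WT and 0.265, 3.6 and 1.62 in Nr2e3-/- libraries. These values rest on 4, 5 and 4 counts in WT and 4, 97 and 30 in Nr2e3-/- libraries. The groups did not overlap (13.9% of all genes tested were higher without overlap). However, Nr2e3-/- replicate 1, the smallest library, had no more Retnlg counts than the WT libraries. Csf3r had 1.57, 2.74 and 1.84 in WT and 0.794, 3.49 and 2.05 in Nr2e3-/- libraries, with its lowest value in replicate 1. The part of neutrophils and macrophages in the receptor values was not tested.

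Across the 33 genes, Nr2e3-/- replicate 2 was the library farthest from the WT mean for 21, replicate 3 for 9 and replicate 1 for 3. The same count was not made over all genes, so it cannot be called particular to complement. The median log2 of the level over the WT mean was 0.03 in replicate 1, 0.52 in replicate 2 and 0.15 in replicate 3. Replicate 1 lay above all WT libraries for 14 of the 33 genes and below all for 7, where 32.7% and 33.1% of all genes did so. Replicate 2 lay above for 22 and below for 6, beside 39.3% and 38.2% of all genes. Replicate 3 lay above for 19 and below for 7, beside 37.5% and 39.6%. Replicate 2 was the highest of the 3 Nr2e3-/- libraries for 19 genes, among them C3, the C1q chains, C4b, Hc and C9. Replicate 3 was highest for 7 genes, which were C1ra, C4a, Mbl1, C6, C7, C8b and C8g.

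**Figure D5:**
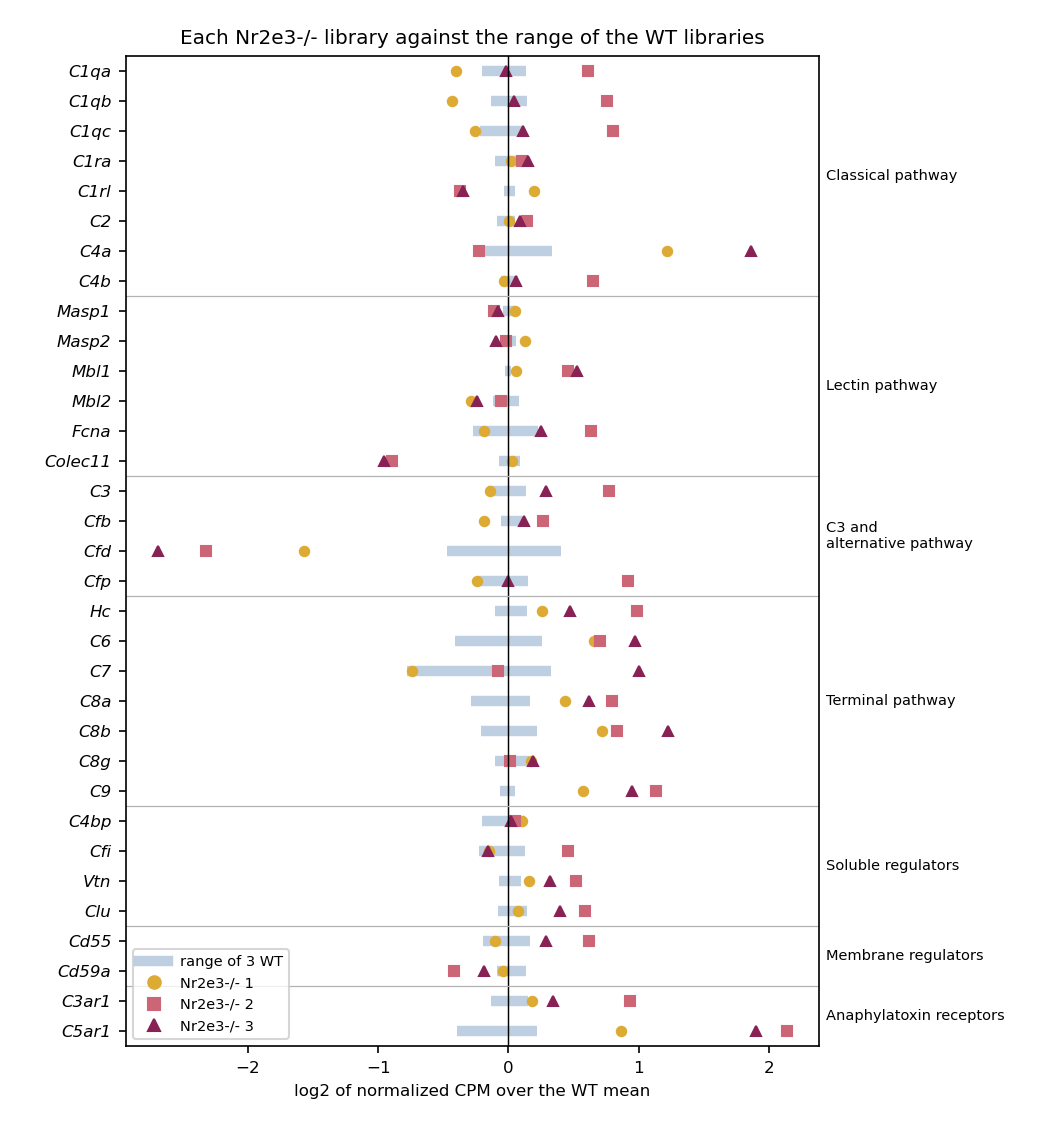
Log2 of normalized CPM over the WT mean for each Nr2e3-/- library (coloured markers) beside the range of the 3 WT libraries (blue bars), for the 33 complement genes tested. Replicate 2 (squares) is farthest from the WT mean for 21 genes, and Cfd lies to the left of the WT range in all 3 libraries.

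Beyond the 34 genes, 22 other complement genes were listed and 18 could be tested. The log2 fold change was above 0 for 14 and below 0 for 4, with a median of 0.14, and 4 had an unadjusted p under 0.05, all higher in Nr2e3-/- tumors (22.2% of 18, beside 11.8% of all genes). Without overlap, 3 were higher (16.7%, close to the 13.9% of all genes) and 1 was lower (5.56%, beside 12.9%). Serping1, the inhibitor of C1, had 595, 599 and 655 normalized CPM in WT and 673, 929 and 781 in Nr2e3-/- libraries (log2 fold change 0.37, edgeR adjusted p = 0.213). C5ar2, the second receptor for C5a and a neighbour of C5ar1 on chromosome 7, had 3.42, 3.62 and 3.64 in WT and 4.90, 5.20 and 5.30 in Nr2e3-/- libraries, each group lying close together (log2 fold change 0.53, SE 0.16, edgeR adjusted p = 0.14). Cd93, a surface protein once described as a C1q receptor, had 17.7, 16.3 and 12.7 in WT and 19.3, 32.9 and 26.0 in Nr2e3-/- libraries (log2 fold change 0.75, edgeR adjusted p = 0.137). Serping1, C5ar2 and Cd93 did not overlap between groups. Itgam, the alpha chain of complement receptor 3, overlapped (log2 fold change 1.21, edgeR adjusted p = 0.209) and shares 66.3% of its 50-base stretches with Gm49368.

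Several complement proteins are acute phase proteins, and 10 other genes of that response were read beside them. Of the 10, 7 had an unadjusted p under 0.05, all higher in Nr2e3-/- tumors (beside 11.8% of all genes), and 4 were higher without overlap (beside 13.9%), with a median log2 fold change of 1.40. Their summed level was 4154 to 7018 normalized CPM in WT and 5412, 15052 and 11963 in Nr2e3-/- replicates 1, 2 and 3. In replicate 1 the sum, most of which is Hp and Itih4, was inside the WT range. In that library Saa1, Saa2, Orm1 and Orm3 were each above all WT libraries, and Saa3, Orm2, Hp, Apcs and Itih4 were inside the WT range. Lcn2 was below all WT libraries there, at 19.7 normalized CPM against 64.8, 487 and 25.9 in WT. The part of the acute phase response in the complement values was not tested.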

How the data were processed

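RNA was extracted from 3 WT and 3 Nr2e3-/- tumors and made into TruSeq libraries. The authors aligned single-end reads to mm10 with TopHat, counted them per gene with FeatureCounts and deposited raw counts. The annotation, the strand setting and the treatment of reads that map to several genes are not given in the sources used here. A normalized table and a table of the authors' own DESeq2 comparison (fold changes and p-values) were not used. Dose, age and time point come from the paper.

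Counts were filtered with filterByExpr (minimum count 10, minimum total 15), scaled by TMM and tested with edgeR 4.0.16 (quasi-likelihood F test, two-sided, Benjamini-Hochberg over all genes tested) in R 4.3.3. Values are CPM on TMM-scaled library sizes. DESeq2 1.42.0 and limma-voom (limma 3.58.1) were alternatives, as were RLE and upper quartile scaling, other filters, the replicate number as a block and leaving out each library. The code was tested on simulated data. The 34 genes, the other lists and the tests were chosen with earlier results of these data known. Every listed gene is named with a value. Genes with non-overlapping groups, an unadjusted p under 0.05 or 1 of the 5 largest changes are given in full. Of the other complement genes, those with an unadjusted p under 0.05 are named. The paper gives 3 mice per genotype, and p-values measure the spread between their tumors. Intervals that 0 counts allow (3 counts) cover counting error only. Exon lengths and shared 50-base stretches came from GENCODE vM21 and promoters from RefSeq (GRCm38.p6). C4a and C4b were aligned with MAFFT 7.526. Tf, Adgre1 and Cd55b were found under the older symbols Trf, Emr1 and Daf2. Figures were drawn with matplotlib 3.10.9. The value of 1 marker gene, which entered a summed level, is not reported here.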

Additional observations from a re-analysis of the deposited data

How the results depend on the processing

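The number of complement genes with an adjusted p under 0.05 was 0 with edgeR, at an unadjusted p under 0.05 it was 10, and other settings gave 1 (Cfd) with no filter beyond 1 count, 6 with DESeq2, 9 with limma-voom and 0 to 11 when single libraries were left out, 11 being without Nr2e3-/- replicate 1. For all genes the count was 13 with edgeR, 8 with upper quartile scaling, 70 with no filter beyond 1 count, 7 with at least 10 counts in every library, 1093 with DESeq2 and 2360 with limma-voom. It ranged from 0 (without WT replicate 1, WT replicate 3 or Nr2e3-/- replicate 3) to 3022 (without Nr2e3-/- replicate 1). Complement genes with an unadjusted p under 0.05 numbered 6 (without WT replicate 3) to 18 (without Nr2e3-/- replicate 1), beside 13.0% and 37.7% of all genes at these settings and 21.5% with all libraries. Those without overlap numbered 10 to 22, the latter without Nr2e3-/- replicate 1, where 54.9% of all genes did not overlap, compared with 26.8% with all libraries. The median log2 fold change stayed above 0, from 0.07 without Nr2e3-/- replicate 2 to 0.46 without replicate 1. The cause of these differences was not tested. Among the values of the 11 genes given in full under these alternatives, 120 kept direction and side of the threshold. Another 23 passed an adjusted p of 0.05 only there, and 0 changed direction. These 11 genes were picked by their differences in these data, so their kept direction was largely fixed in advance. Of all complement genes tested, 6 changed sign without Nr2e3-/- replicate 2 (C1qa, C1qb, C1qc, Cfb, Cfi and Cfp) and 5 with upper quartile scaling.

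With the replicate block, 0 genes of all and 0 complement genes were called, and 8 complement genes had an unadjusted p under 0.05. The deviations of libraries with the same number had correlations of -0.10, 0.24 and 0.01, and 1 of 3 Nr2e3-/- libraries correlated best with its own number. This gave no clear sign that the numbers pair the samples, but 3 libraries per group are too few to exclude it. Depth limits C7, C5ar1, Cfd and Cd46 most.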

Other observations

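Cr2, the complement receptor of B cells and follicular dendritic cells, was 1 of the 22 other complement genes and the only one of those tested that was lower without overlap. It had 0.499, 0.474 and 0.798 normalized CPM in WT and 0.463, 0.186 and 0.379 in Nr2e3-/- libraries, at a log2 fold change of -0.85 (SE 0.45, edgeR adjusted p = 0.312). The B cell markers Cd79a and Ms4a1 were lower without overlap as well, with log2 fold changes of -1.36 and -1.49 (edgeR adjusted p = 0.134 and 0.141). Cd79a, a chain of the B cell receptor, had 0.576, 0.474 and 0.381 in WT and 0.199, 0.186 and 0.162 in Nr2e3-/- libraries. All these levels are under 1 normalized CPM, and the summed level of the 7 lymphocyte markers overlapped between groups (3.49 to 8.56 in WT and 2.43 to 5.23 in Nr2e3-/- libraries).

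Of the 5 endothelial markers, 1 was higher without overlap (beside 13.9% of all genes) and 2 were lower (beside 12.9%). Lyve1, a hyaluronan receptor, was higher (log2 fold change 0.82, edgeR adjusted p = 0.111). The receptor gene Kdr (-0.61, edgeR adjusted p = 0.123) and Stab2 (-0.18, edgeR adjusted p = 0.448) were lower. For Stab2 the margin was small, with 87.2, 81.9 and 81.0 normalized CPM in WT and 79.8, 80.2 and 60.4 in Nr2e3-/- libraries. The 5 summed to 267 to 280 normalized CPM in WT and 227 to 283 in Nr2e3-/- libraries. The 4 bile duct markers summed to 8.11 to 10.9 in WT and 7.65 to 11 in Nr2e3-/- libraries, and none of the 3 that could be tested had an unadjusted p under 0.05.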
